A study of Mus musculus with 13 samples.

Results

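The 50 genes described here encode the machinery that makes ribosomes: subunits and factors of RNA polymerase I, the proteins of the small nucleolar RNA particles that modify ribosomal RNA, and the assembly factors of the 40S and 60S subunits. They were taken as a list of gene symbols out of 35906 genes to which the deposited transcripts were assigned, and all 50 were found. No measured value entered the rule, but the list was chosen with earlier results of these data known. They were measured by bulk RNA-seq in M2 CD4SP thymocytes, the most mature CD4 single-positive cells of the thymus, sorted as CD69- MHCI+ cells, with 1 mouse per library and 13 libraries in all. Every mouse carried the Lm54 T cell receptor transgene, specific for a listeriolysin O (LLO) peptide on I-Ab, on a Rag1-/- background, so that all T cells have 1 receptor. The mice were either Ctsl+/+ (the labels write Ctsl fl/fl (WT)) or CtslΔTEC, in which a Foxn1-driven Cre deletes the protease cathepsin L in thymic epithelial cells and not in the thymocytes that were sequenced. Cells were either stored straight after the sort (4 Ctsl+/+ and 5 CtslΔTEC mice) or first cultured for 4 h with soluble anti-CD28 at 250 ng/ml and plate-bound LLO:I-Ab monomer at 1 µg/ml (2 mice of each genotype). The methods give an age of 8 to 12 weeks for the mice of the study unless stated otherwise, and the labels give none.

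Ribosome production starts in the nucleolus, where RNA polymerase I copies the ribosomal RNA genes into a long precursor. Guide RNAs with box C/D proteins direct methylation of the precursor and those with box H/ACA proteins direct pseudouridylation, while the small-subunit processome and the 60S assembly factors cut it and fold it with ribosomal proteins. The pathway is among the costliest of a growing cell, is under the control of growth signals and of the transcription factor MYC, and is switched on in resting T cells before their first division. The values below are levels of the messenger RNAs that encode this machinery, and ribosomal RNA itself is not analysed here.

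The unstimulated libraries held 25692380 to 39127833 estimated counts, and the stimulated libraries were smaller, at 8085463 and 27184520 in Ctsl+/+ and 11792192 and 16866027 in CtslΔTEC cells. Cd4 lay between 744.8 and 1156 CPM (counts scaled to the size of the library) and the B cell markers stayed under 1 CPM in every library. A list of 6 activation genes rose from 182 to 299.5 CPM in unstimulated cells to 8610 to 11650 CPM after stimulation, and Myc from 64.1 to 88.7 CPM to 990.4 to 1372 CPM. Other marker lists moved with the state too: the mature CD4 T list went from 3890 to 5040 CPM down to 2270 to 2393 CPM, the 3 erythroid genes from 28.2 to 115.7 CPM down to 1.90 to 13.1 CPM, and the 5 thymic epithelial genes from 2.53 to 5.16 CPM up to 10.9 to 15.1 CPM, and their part in the responses was not tested. Each stimulated library carried a later date in its file name than every unstimulated library, and no cells were cultured without antigen. The effects of antigen, of 4 h in culture and of the date therefore cannot be told apart in any comparison of the states.

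The hexamer CACGTG, the E-box that MYC and its partner MAX bind, reads the same on both strands and was searched for in RefSeq promoter windows of mouse build GRCm38.p6, from 250 bases before to 50 bases after each annotated start. Windows were given for 43 of the 50 genes, and were not given for Fbl, Npm1, Nol6, Bop1, Gnl2, Rrp12 and Rrs1. Of the 43 genes 13 held the hexamer (30.2%), against 2187 of 27025 genes with a window (8.09%) and 1165 of the 10443 of those that were tested for expression (11.2%). The difference lay in the 50 bases after the start. Before the start 4 of the 43 genes held a copy (9.3%), next to 9.33% of the tested genes, whereas a copy after the start alone was found in 9 genes (20.9%), next to 1.83% of the tested genes. The copies with 10 bases of context on each side are shown because they are the letters these genes share, with CACGTG in capitals and each sequence read 5′ to 3′ along the gene. Copies before the start were as follows.
Imp4 (chr1:34439698-34439723, plus strand): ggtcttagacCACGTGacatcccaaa
Nop2 (chr6:125131813-125131838, plus strand): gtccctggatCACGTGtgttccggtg
Rrn3, first copy (chr16:13780474-13780499, plus strand): gcgccaaggtCACGTGcacacgcctc
Rrn3, next copy (chr16:13780641-13780666, plus strand): acgctctgctCACGTGggccgcgtcc
Utp18 (chr11:93885771-93885796, minus strand): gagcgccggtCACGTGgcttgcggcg
Copies inside the first bases of the transcript were as follows.
Grwd1 (chr7:45830740-45830765, minus strand): gccggagtcgCACGTGtgaaaccgga
Ltv1 (chr10:13193094-13193119, minus strand): cctgtggaccCACGTGtggagctgcc
Pes1 (chr11:3963967-3963992, plus strand): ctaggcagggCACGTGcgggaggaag
Pus7 (chr5:23783668-23783693, minus strand): cgcagcgccgCACGTGtgcgagcccg
Tsr1 (chr11:74898094-74898119, plus strand): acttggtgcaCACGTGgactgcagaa
Utp4 (chr8:106893645-106893670, plus strand): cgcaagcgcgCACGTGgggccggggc
Wdr43 (chr17:71616222-71616247, plus strand): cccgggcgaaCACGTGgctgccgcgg
Mybbp1a and Utp20 also held a copy after the start, too close to the end of the window for 10 bases of context. A match is a run of letters and was not tested as a binding site.

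Per length, in TPM (transcript abundance corrected for length and scaled to the same total in each library), the 50 genes spanned a wide range of levels in unstimulated Ctsl+/+ cells. Npm1, a histone and ribosomal protein chaperone, was highest at 589 ± 70.1 TPM (SD, n = 4), followed by Ncl, which encodes the nucleolar RNA-binding protein nucleolin, at 207 ± 12.9 TPM and Fbl, the methyltransferase of the box C/D particle, at 197 ± 19.8 TPM. The values of Ncl and Fbl overlapped between mice, so their order is not resolved. Bysl, a 40S assembly factor, was lowest at 11.6 ± 1.14 TPM and Nol10 stood beside it at 12.5 ± 1.52 TPM, again with overlapping mice. The TPM of all 50 genes summed to 3395 to 3655 in unstimulated Ctsl+/+ cells, and to 3192 to 3565 in unstimulated CtslΔTEC cells. After stimulation the sum was 11624 and 12440 TPM in Ctsl+/+ cells and 12712 and 13620 TPM in CtslΔTEC cells. The genes took 0.454% to 0.497% of all counts in unstimulated and 1.61% to 1.76% in stimulated libraries.

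**Figure D1:**
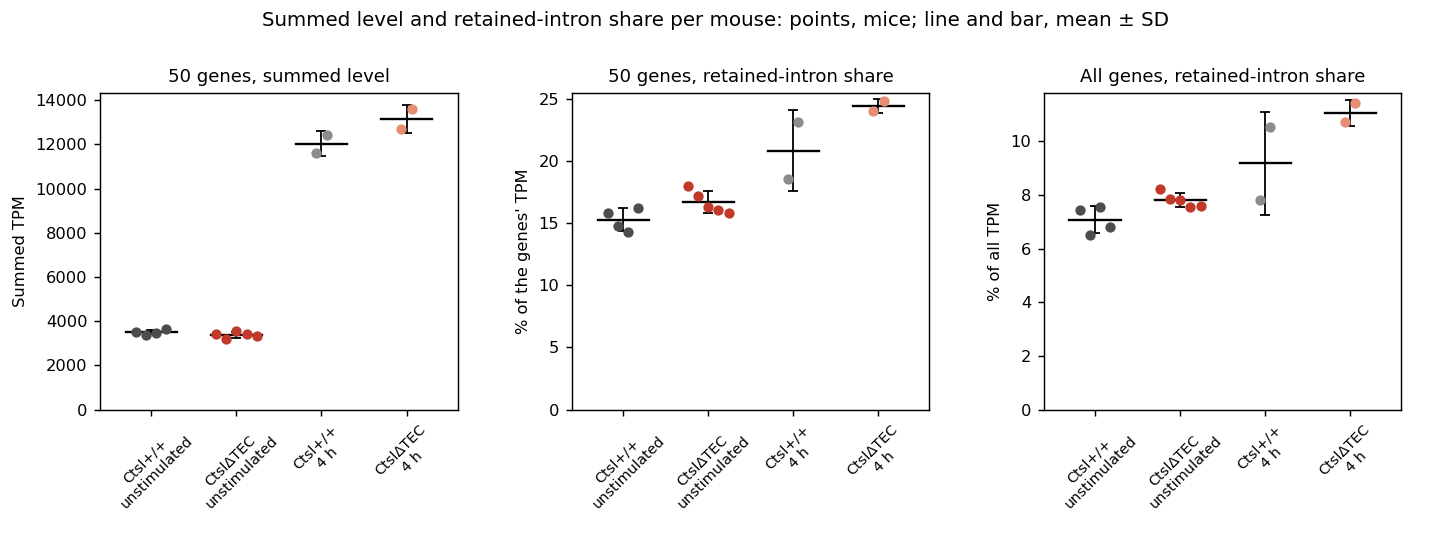
Summed TPM of the 50 genes (left), percent of their TPM on transcripts annotated with a retained intron (middle) and the same percent over all genes (right), with 1 point per mouse and line and bar for mean ± SD in each group of genotype and state. The summed level lay between 11624 and 13620 TPM in the 4 stimulated mice and between 3192 and 3655 TPM in the 9 unstimulated mice.

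Nearly all of the genes were higher in stimulated than in unstimulated cells in both genotypes, a difference in which antigen, culture and date cannot be told apart. In Ctsl+/+ cells 49 of 50 were higher and 1 was lower at an adjusted p under 0.1 (edgeR quasi-likelihood test, Benjamini-Hochberg over 14241 genes), where 32.9% of all genes tested were higher and 34.8% lower, 67.7% together. In CtslΔTEC cells 49 were again higher and 1 lower, where 32.9% of all genes were higher and 38.2% lower, 71.2% together. The median change was 1.86 on the log2 scale in Ctsl+/+ cells (3.64-fold), against 0.01 for all genes, and 2.06 in CtslΔTEC cells (4.18-fold), against -0.06 for all genes. More than 2-fold increases were seen in 46 and 48 of the 50 genes, and in 18.6% and 18.1% of all genes. Increases above 4-fold were seen in 20 and 29 of them, and in 6.41% and 6.26% of all genes. For 49 genes every stimulated library lay above every unstimulated library of the same genotype, where 33.4% of all genes did in Ctsl+/+ and 33.8% in CtslΔTEC cells. The remaining gene lay below in every stimulated library, where 36.0% and 38.3% of all genes did. In bulk samples fewer cells of a type and less RNA per cell cannot be told apart, so each value is a share of the library and not an amount per cell.

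**Figure D2:**
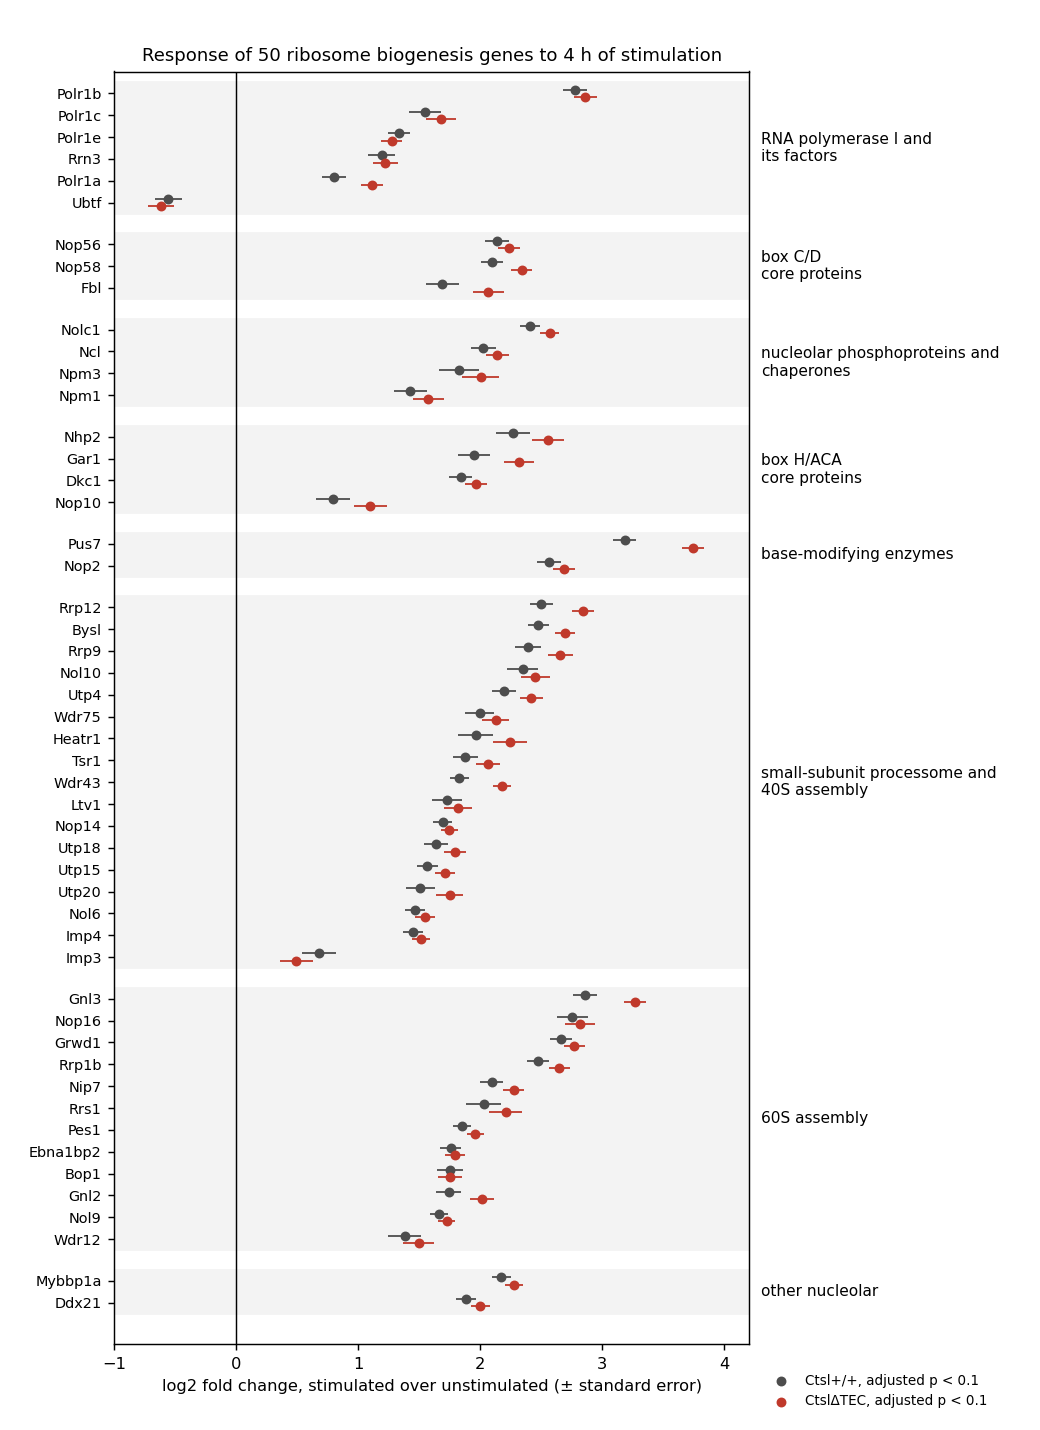
Log2 fold change from unstimulated to stimulated cells, with standard error, of each of the 50 genes in Ctsl+/+ (grey) and CtslΔTEC cells (red), grouped by role. Of the 50 genes 49 lie to the right of 0 in both genotypes and Ubtf lies to the left, at -0.56 and -0.62.

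The polymerase I genes had the most uneven response of the roles. Polr1b, the large subunit that forms the catalytic centre with Polr1a, stood at 47.6, 58.1, 52.8 and 45.2 CPM in the 4 unstimulated Ctsl+/+ mice and at 334.5 and 361 CPM in the stimulated mice. In CtslΔTEC mice Polr1b was at 43.6, 50.3, 50.2, 47.0 and 49.0 CPM unstimulated and at 330.5 and 367 CPM stimulated. There was no overlap between states, and the log2 fold change was 2.77 ± 0.10 (SE) in Ctsl+/+ cells and 2.86 ± 0.09 in CtslΔTEC cells (adjusted p = 1.18e-11 and 2.54e-12). Polr1a, the largest subunit, rose less, from 163.5, 171, 176 and 141 CPM to 267 and 301 CPM in Ctsl+/+ cells, a log2 fold change of 0.80 ± 0.10 (adjusted p = 3.84e-06). In CtslΔTEC cells Polr1a went from 114, 111, 120.3, 125 and 115.5 CPM to 237 and 269.8 CPM, a log2 fold change of 1.11 ± 0.09 (adjusted p = 4.57e-08). Polr1c, a subunit shared with RNA polymerase III, Polr1e and the initiation factor Rrn3 rose by log2 fold changes of 1.19 to 1.55 in Ctsl+/+ cells and 1.22 to 1.68 in CtslΔTEC cells. Ubtf, named here after its values were seen, encodes the architectural protein that coats active ribosomal RNA genes and was the 1 gene that fell. It stood at 337, 293, 349 and 340.4 CPM in unstimulated and 224.0 and 224.4 CPM in stimulated Ctsl+/+ mice, and at 311, 258, 276, 318 and 308.5 CPM and then 176 and 208 CPM in CtslΔTEC mice. The groups did not overlap, and Ubtf fell by 0.56 ± 0.11 and 0.62 ± 0.11 on the log2 scale (adjusted p = 0.000408 and 0.000118). Before stimulation Ubtf was among the more abundant of the genes at 146 ± 13.7 TPM in Ctsl+/+ cells, and after it at 91.5 ± 7.98 TPM.

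The proteins of the guide RNA particles rose together, with Nop10 as the exception in size. All 3 box C/D genes and all 4 box H/ACA genes were higher in both genotypes, where the median log2 fold changes were 2.09 and 1.89 in Ctsl+/+ and 2.23 and 2.14 in CtslΔTEC cells. Fbl went from 130, 121, 140.1 and 159 CPM to 455 and 430.3 CPM in Ctsl+/+ mice (log2 fold change 1.69 ± 0.14, adjusted p = 4.11e-08). In CtslΔTEC mice Fbl went from 150.1, 101, 113.5, 114.5 and 125 CPM to 473 and 536 CPM (2.06 ± 0.13, adjusted p = 1.61e-09). Nop56 and Nop58, which form the scaffold of the particle, rose by 2.13 ± 0.10 and 2.09 ± 0.09 in Ctsl+/+ cells. Dkc1, the pseudouridine synthase of the box H/ACA particle, rose by 1.84 ± 0.09 in Ctsl+/+ and 1.97 ± 0.09 in CtslΔTEC cells (adjusted p = 3.56e-10 and 6.24e-11), and Nhp2, its RNA-binding partner, by 2.27 ± 0.14 and 2.56 ± 0.13. Nop10, the smallest of these proteins, was the least raised of the 4 at 0.79 ± 0.14 and 1.10 ± 0.13.

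Among the abundant nucleolar proteins, Ncl had the largest gain in counts. Ncl stood at 600.1, 608, 539.7 and 581 CPM in unstimulated and 2590 and 2146 CPM in stimulated Ctsl+/+ mice, and at 486, 562, 586.5, 605 and 566 CPM and then 2457 and 2484 CPM in CtslΔTEC mice. The states were far apart relative to the spread between mice (log2 fold change 2.02 ± 0.10 and 2.14 ± 0.09, adjusted p = 2.61e-10 and 4.94e-11). Npm1, the most abundant per length, rose less, from 501.6, 542, 406 and 542 CPM to 1539 and 1139 CPM in Ctsl+/+ cells (1.43 ± 0.13, adjusted p = 2.18e-07) and by 1.57 ± 0.13 in CtslΔTEC cells (adjusted p = 2.96e-08). Nolc1, a phosphoprotein that shuttles between nucleolus and Cajal body and binds polymerase I, rose by 2.41 ± 0.08 and 2.57 ± 0.08. The RNA helicase Ddx21 rose by 1.88 ± 0.08 in Ctsl+/+ cells and the nucleolar MYB-binding protein gene Mybbp1a by 2.17 ± 0.08.

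Pus7 and Gnl3 had the largest fold changes in both genotypes. In Ctsl+/+ cells Gnl3 (log2 fold change 2.86), Polr1b (2.77) and Nop16 (2.75) stood close together, so their order is not resolved there. Pus7, a stand-alone pseudouridine synthase of transfer and messenger RNA that needs no guide RNA, was at 24.4, 26.99, 24.2 and 27.5 CPM in unstimulated and 237 and 231 CPM in stimulated Ctsl+/+ mice. In CtslΔTEC mice Pus7 was at 18.6, 19.7, 18.5, 17.9 and 16.04 CPM unstimulated and at 224 and 261 CPM stimulated. These are increases of 9.07-fold (log2 fold change 3.18 ± 0.09, adjusted p = 1.92e-12) and 13.4-fold (3.74 ± 0.09, adjusted p = 1.48e-13), the largest among the 50 genes in both genotypes. Gnl3, which encodes the nucleolar GTPase nucleostemin, went from 60.7, 67.0, 59.6 and 72.9 CPM to 435 and 507 CPM in Ctsl+/+ cells (7.24-fold) and from 61.1, 65.5, 66.3, 61.1 and 56.3 CPM to 565 and 629 CPM in CtslΔTEC cells (9.63-fold). The other 60S factors included Nop16 (2.75 ± 0.13 and 2.82 ± 0.12), the histone- and ribosomal protein-binding chaperone gene Grwd1 (2.66 ± 0.09 and 2.77 ± 0.09) and Rrp1b (2.48 ± 0.09 and 2.65 ± 0.09). Over all 12 genes of the 60S group the log2 fold changes ran from 1.38 to 2.86 in Ctsl+/+ and from 1.49 to 3.27 in CtslΔTEC cells. Nop2, a methyltransferase of the large ribosomal RNA with an E-box before its start, rose by 2.56 ± 0.10 and 2.69 ± 0.09.

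All 17 genes of the small-subunit processome and 40S assembly rose in both genotypes, with medians of 1.83 and 2.06 on the log2 scale. Rrp12, involved in export of pre-ribosomes (2.50 ± 0.09 and 2.84 ± 0.09), and Bysl were at the upper end. Bysl went from 30.5, 32.2, 36.7 and 30.7 CPM to 186.5 and 175 CPM in Ctsl+/+ cells (2.48 ± 0.09, adjusted p = 1.16e-11) and from 24.7, 22.7, 26.0, 25.2 and 26.3 CPM to 157 and 167 CPM in CtslΔTEC cells (2.70 ± 0.08, adjusted p = 1.46e-12). At the lower end was Imp3, a protein of the U3 particle, with 0.68 ± 0.14 and 0.49 ± 0.14 (adjusted p = 0.000694 and 0.00531), while its partner Imp4 lay within the range of the rest. The 17 genes therefore spanned from 0.68 to 2.50 in Ctsl+/+ and from 0.49 to 2.84 in CtslΔTEC cells.

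**Figure D3:**
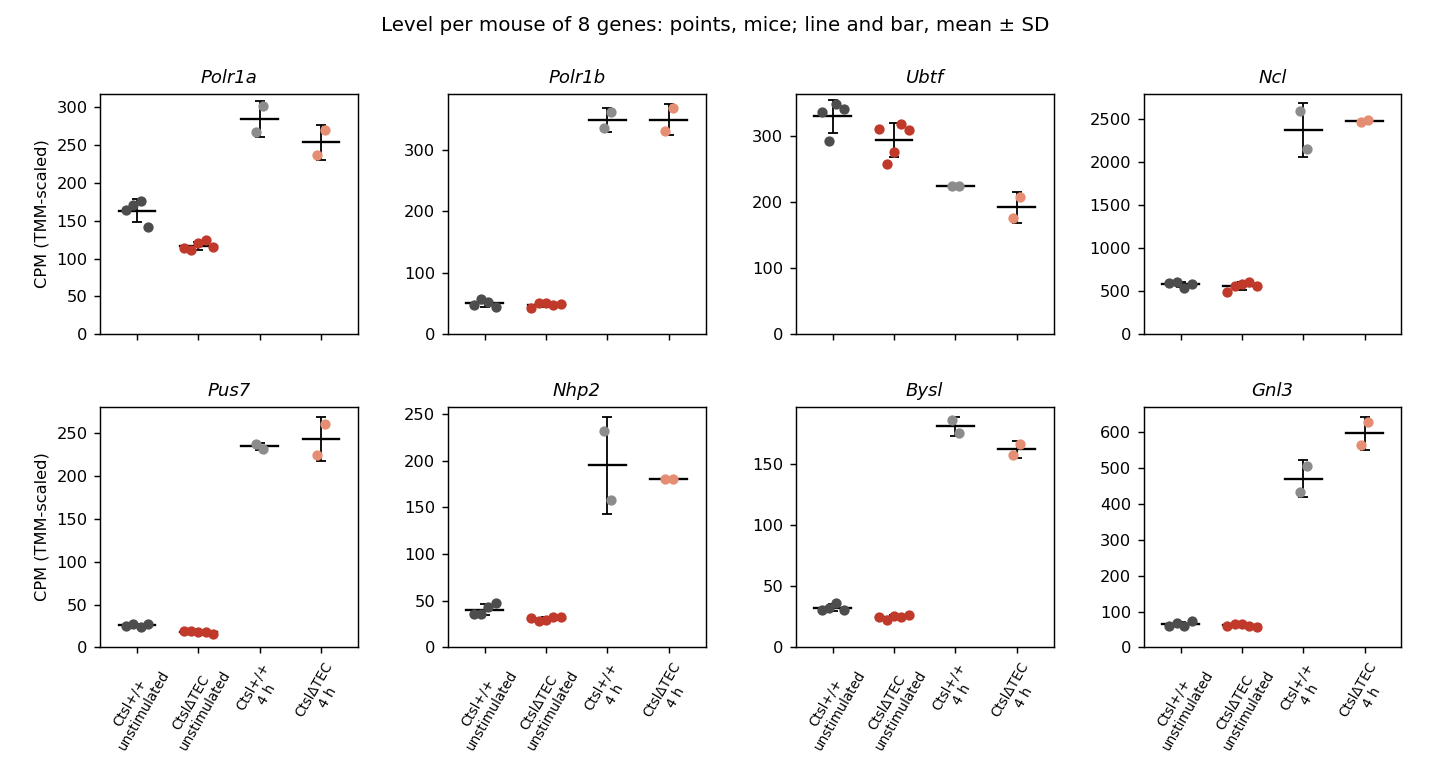
TMM-scaled CPM of 8 genes in each mouse, with line and bar for mean ± SD in each group of genotype and state. Ubtf is lower in all 4 stimulated mice than in all 9 unstimulated mice, the other 7 genes are higher, and Pus7, Nhp2, Bysl and Polr1a are lower in each unstimulated CtslΔTEC mouse than in each unstimulated Ctsl+/+ mouse.

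The 13 genes with an E-box in the window had a median log2 fold change of 1.85 in Ctsl+/+ cells and the 30 genes without one of 1.96, and in CtslΔTEC cells the medians were 2.06 and 2.13. The ranges of both sets overlapped, from 1.19 to 3.18 with and from -0.56 to 2.86 without an E-box in Ctsl+/+ cells. Pus7, Grwd1 and Nop2 had an E-box and were among the most raised, as were Gnl3 and Polr1b, which had none.

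Several of the genes host small nucleolar RNAs in their introns, so transcripts annotated with a retained intron were counted apart. In GENCODE M21, 7 of the genes contain 21 small nucleolar RNA genes: Nop56 holds 5, Nop58 4, Ncl, Wdr43 and Gnl3 3 each, Tsr1 2 and Dkc1 1. These hosts had a median log2 response of 2.02 in Ctsl+/+ cells against 1.82 in the other 43 genes. Retained-intron transcripts took 14.3% to 16.3% of the summed TPM of the 50 genes in unstimulated Ctsl+/+ cells and 15.8% to 18.02% in unstimulated CtslΔTEC cells. After stimulation they took 18.6% and 23.2% in Ctsl+/+ and 24.1% and 24.8% in CtslΔTEC cells. Over all genes the share moved as well, from 6.49% to 8.22% in unstimulated libraries to 7.82%, 10.5%, 10.7% and 11.4% in the stimulated libraries. In Ncl 79.1% of the TPM fell on such transcripts in unstimulated and 78.9% in stimulated cells, and in Wdr43 63.2% and 71.9%. Of the 32 genes with such a transcript, the share was higher in every stimulated than in every unstimulated library for 6 and lower for 1. Of 7246 genes tested that have one, it was higher in 11.2% and lower in 1.16%. Those higher included Fbl (6.83% to 15.3%) and Bop1 (18.9% to 34.3%), a 60S factor of the PeBoW complex, and the 1 that was lower was Pus7 (2.49% to 1.20%). With protein-coding transcripts alone, 49 genes were higher and 1 lower in both responses. Strand use of the libraries is not given in the sources used here, and 21 of the 50 genes overlap the span of a gene on the other strand. Reads from sequence that transcripts of both genes share could not be told apart without it, and how much they share was not examined.

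The responses of both genotypes were alike in order. Across the 50 genes the log2 fold changes of Ctsl+/+ and CtslΔTEC cells had a Pearson r of 0.985 and a Spearman rho of 0.98, a description across genes that share date and scaling. The change was larger in CtslΔTEC cells for 47 genes, with a median difference of 0.14, where it was larger for 42.6% of all genes, with a median of -0.065. The members' median was 0.08 without CtslΔTEC stimulated mouse 7, 0.21 and 0.22 without CtslΔTEC unstimulated mouse 2 or 3, and 0.085 with library totals in place of TMM. The test of this difference, the interaction of genotype and stimulation, called 1 gene higher and 0 lower, where 1.13% of all genes were higher and 4.88% lower, 6.01% together. At an unadjusted p under 0.05 it had 5 genes, where 16.3% of all genes did, and DESeq2 called 4, where it called 7.37% of all genes. The gene called was Pus7, whose response was larger in CtslΔTEC cells by 0.56 ± 0.13 on the log2 scale (adjusted p = 0.0362). Its unstimulated level was lower in each CtslΔTEC mouse than in each Ctsl+/+ mouse, and its stimulated levels overlapped. Without Ctsl+/+ stimulated mouse 5, the smallest library, the difference of Pus7 was 0.57 (adjusted p = 0.116), and without CtslΔTEC stimulated mouse 7 it was 0.44 (adjusted p = 0.16). Wdr43 (0.35 ± 0.11, adjusted p = 0.118), Gnl3 (0.41 ± 0.15, adjusted p = 0.154), Rrp12 (0.34 ± 0.14, adjusted p = 0.211) and Polr1a (0.31 ± 0.14, adjusted p = 0.274) followed and did not pass.

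In unstimulated cells the genotype differences over the list were small and mostly toward lower values in CtslΔTEC cells, and few genes were called. Of the 50 genes 0 were higher and 6 were lower, where 8.36% of all 13152 genes tested were lower, 6.42% higher and 14.8% either. The groups did not overlap for 8 genes, all lower in CtslΔTEC mice, and for 7.92% of all genes lower and 5.95% higher. At an unadjusted p under 0.05 there were 12 genes, where 24.1% of all genes were under it. The median of the 50 genes was -0.09 on the log2 scale against 0.01 for all genes, and 47 of them had a negative value, where 52.1% of all genes were positive. The mean log2 CPM of the 50 genes was 6.077 to 6.166 in Ctsl+/+ and 5.992 to 6.053 in CtslΔTEC mice, without overlap. Polr1a stood at 141 to 176 CPM in Ctsl+/+ mice and 111 to 125 CPM in CtslΔTEC mice without overlap, at 0.719 of the Ctsl+/+ level (log2 fold change -0.48 ± 0.07, adjusted p = 0.00136). Pus7 stood at 24.2 to 27.5 CPM in Ctsl+/+ and 16.04 to 19.7 CPM in CtslΔTEC mice, at 0.703 of the Ctsl+/+ level (-0.51 ± 0.08, adjusted p = 0.0017). Nhp2 stood at 35.3, 35.8, 43.1 and 47.5 CPM in Ctsl+/+ mice and at 31.2, 28.0, 29.9, 32.2 and 32.1 CPM in CtslΔTEC mice (-0.40 ± 0.10, adjusted p = 0.0224). Bysl was at 0.771 of the Ctsl+/+ level (-0.38 ± 0.08, adjusted p = 0.00886), again without overlap. With the retained-intron percent of each library as a covariate, Bysl (-0.35, adjusted p = 0.159) and Nhp2 (-0.35, adjusted p = 0.283) were not called. Rrp1b (-0.22 ± 0.07, adjusted p = 0.0793) passed narrowly and was lost in 16 of 23 alternatives (adjusted p from 0.0287 to 0.772 over them), and its mice overlapped, with Ctsl+/+ mouse 1 at 43.5 CPM within the CtslΔTEC range of 40.5 to 44.8 CPM. Nop10, outside the rule for named genes and given because it completes the 6, was at -0.27 ± 0.09 (adjusted p = 0.0924). Fbl (-0.18 ± 0.12, adjusted p = 0.37), Ncl (-0.05 ± 0.07, adjusted p = 0.741) and Npm1 (-0.15 ± 0.10, adjusted p = 0.4) did not pass.

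Other measures differed between the same unstimulated groups. The summed level of 7 markers of double-positive thymocytes was 49.5 to 73.6 CPM in Ctsl+/+ and 219 to 292 CPM in CtslΔTEC mice, with 1 of the 7 under 1 CPM in every library. The 6 markers of mature CD4 T cells summed to 4552 to 5040 CPM in Ctsl+/+ and 3890 to 4178 CPM in CtslΔTEC mice, and among them S1pr1, the receptor for exit from the thymus, stood at 686.8 to 892.9 and 396.3 to 584.2 CPM. The 5 thymic epithelial markers summed to 2.53 to 3.16 CPM in Ctsl+/+ and 3.39 to 5.16 CPM in CtslΔTEC mice, also without overlap, with Foxn1, Krt5 and Krt8 near 0. Y-linked genes were expressed in 1 of 4 Ctsl+/+ and 5 of 5 CtslΔTEC mice, and with their mean as a covariate 2 of the 50 genes were called, while Pus7 stood at -0.41 (adjusted p = 0.201) and Nhp2 at -0.47 (adjusted p = 0.241). The part of the double-positive, mature and thymic epithelial markers in the differences was not tested.

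**Figure D4:**
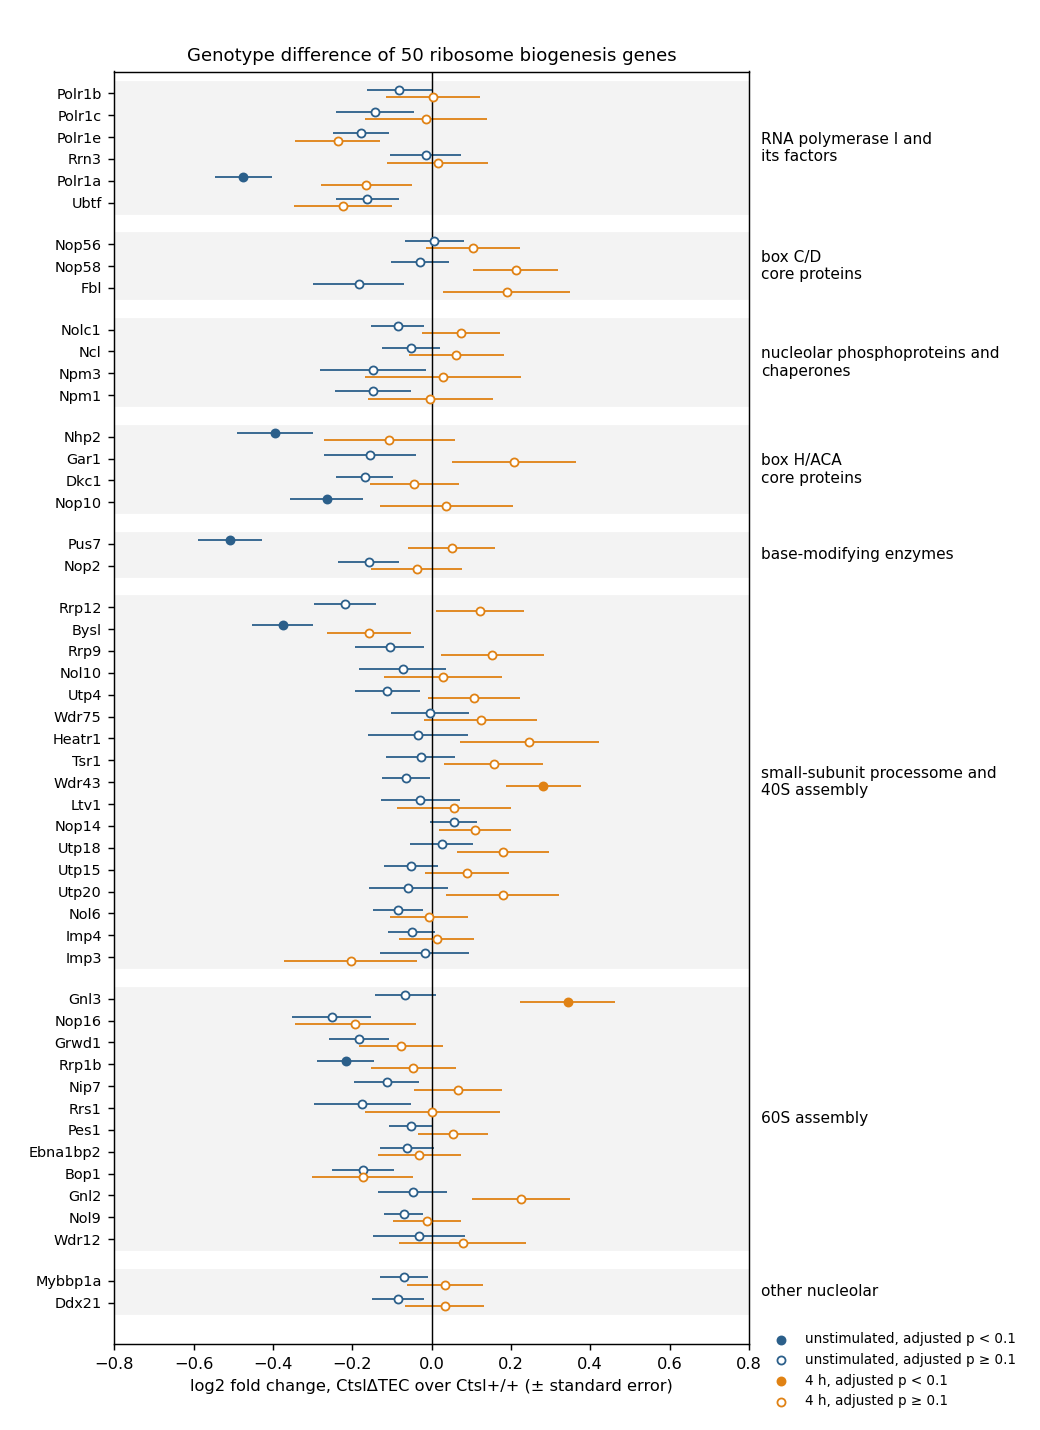
Log2 fold change of CtslΔTEC over Ctsl+/+ cells, with standard error, of each of the 50 genes in unstimulated (blue) and stimulated cells (orange), grouped by role, with filled points for an adjusted p under 0.1. In unstimulated cells 47 points lie left of 0 and 6 are filled, and in stimulated cells 33 lie right of 0 and 2 are filled.

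After stimulation 2 of the 50 genes were higher and 0 lower in CtslΔTEC cells, where 2.77% of all genes were higher and 10.6% lower. An unadjusted p under 0.05 was seen in 3 of the 50 genes, where 22.6% of all genes were under it. The 2 mice of each genotype did not overlap for 14 of the 50 genes that were higher and 4 that were lower in CtslΔTEC cells. Over all genes these shares were 19.4% and 30.2%. The median was 0.04 against -0.06 for all genes. Other measures moved between the same 4 mice without overlap: the activation list stood at 8610 to 10080 CPM in Ctsl+/+ and 11190 to 11650 CPM in CtslΔTEC mice, within it Myc at 990.4 to 1161 and 1177 to 1372 CPM but Il2, encoding interleukin-2, at 50.7 to 54.4 and 3.07 to 5.75 CPM, and the double-positive list at 26.7 to 31.6 and 73.9 to 79.3 CPM. Their part in the result was not tested. The percent of all counts on retained-intron transcripts also stood apart, at 5.99% and 7.63% in Ctsl+/+ and 7.94% and 8.55% in CtslΔTEC mice, and with it as a covariate neither Wdr43 (0.25, adjusted p = 0.366) nor Gnl3 (0.27, adjusted p = 0.464) was called. Wdr43, a subunit of the small-subunit processome, stood at 425 and 450.2 CPM in Ctsl+/+ and 513 and 552 CPM in CtslΔTEC mice (0.28 ± 0.09, adjusted p = 0.0803), and Gnl3 at 435 and 507 CPM and 565 and 629 CPM (0.34 ± 0.12, adjusted p = 0.0954). Both host small nucleolar RNAs, and with protein-coding transcripts alone the values were 0.23 (adjusted p = 0.243) and 0.20 (adjusted p = 0.593). Without Ctsl+/+ mouse 5, without CtslΔTEC mouse 6 or without CtslΔTEC mouse 7 neither gene was called, and without Ctsl+/+ mouse 6 only Gnl3 was. The next 3 genes by p did not pass. Polr1e, a polymerase I subunit, was lower in both CtslΔTEC mice, at 58.1 and 66.1 CPM next to 74.9 and 71.8 CPM in Ctsl+/+ mice (-0.24 ± 0.11, adjusted p = 0.204). Nop58 stood at 429.5 and 405 CPM in Ctsl+/+ and 475 and 492 CPM in CtslΔTEC mice (0.21 ± 0.11, adjusted p = 0.264), and Gnl2, a nucleolar GTPase of 60S assembly, at 197 and 207 and then 230.2 and 242 CPM (0.23 ± 0.12, adjusted p = 0.301), both without overlap. Of the genes called lower in unstimulated CtslΔTEC cells, Bysl was again lower without overlap, at 157 and 167 CPM next to 186.5 and 175 CPM, and did not pass (-0.16 ± 0.11, adjusted p = 0.411). Nhp2, with 232 and 158 CPM in Ctsl+/+ and 180.3 and 181 CPM in CtslΔTEC mice, overlapped (-0.11 ± 0.17, adjusted p = 0.767). Polr1a, with 267 and 301 CPM in Ctsl+/+ and 237 and 269.8 CPM in CtslΔTEC mice, overlapped between genotypes (-0.17 ± 0.12, adjusted p = 0.437), and Pus7 did as well (0.05 ± 0.11, adjusted p = 0.85). Fbl (0.19 ± 0.16), Ncl (0.06 ± 0.12) and Npm1 (-0.003 ± 0.16) did not pass.

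A further 95 genes of ribosome production, outside the 50 and also listed with earlier results of these data known, mostly rose as well. In Ctsl+/+ cells 87 of the 95 rose and 1 fell, where 32.9% of all genes rose and 34.8% fell, with a median log2 fold change of 1.39, and in CtslΔTEC cells 91 rose and 1 fell, where 32.9% and 38.2% of all genes did, with a median of 1.55. The gene that fell was Ttf1, which encodes the factor that terminates polymerase I transcription, at -0.99 ± 0.09 in Ctsl+/+ and -0.80 ± 0.09 in CtslΔTEC cells (adjusted p = 2.34e-07 and 1.16e-06). Taf1b, a subunit of the selectivity factor of polymerase I, had values of -0.09 ± 0.11 and -0.06 ± 0.10 and did not pass (adjusted p = 0.501 and 0.636). Ttf1 and Taf1b were picked after their values were seen. Between genotypes 1 of the 95 was higher and 3 lower in unstimulated cells, where 6.42% and 8.36% of all genes were. Their median was -0.015 on the log2 scale, with 57 negative and 38 positive values, so the lean of the 50 genes was weaker here. In stimulated cells 3 were higher and 3 lower, where 2.77% and 10.6% of all genes were. In the interaction edgeR called 0 of the 95, with 9 at an unadjusted p under 0.05 (16.3% of all genes), and DESeq2 called 4 (7.37% of all genes).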

How the data were processed

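RNA of sorted thymocytes was sequenced as pairs on a NovaSeq. Per the labels and the study's methods, kallisto 0.48 assigned the reads to Ensembl transcripts. The deposited values are estimated (expected) counts, TPM and effective lengths per transcript. The labels name poly(A) RNA and the methods ribosomal RNA depletion. Transcripts were summed to 35906 genes through GENCODE M21 (GRCm38), which held 99.06% of 117497 transcripts, and transcripts without a gene took at most 0.461% of counts. The deposited estimated counts were rounded and tested with edgeR 4.0.16 (R 4.3.3; TMM scaling, filterByExpr, quasi-likelihood test, Benjamini-Hochberg over all genes tested, adjusted p under 0.1). The genotypes were compared in 9 unstimulated libraries (13152 genes), and the other 4 comparisons came from 1 model of all 13 (14241 genes). CPM are TMM-scaled and log2 CPM used a prior count of 2; deposited TPM are used for levels per length and shares of transcript types. The tests were first tested on simulated data. Alternatives were DESeq2 1.42.0, other scalings and filters, protein-coding transcripts, covariates and leaving out each library. Values and statistics are given for Polr1a, Fbl, Ncl and Npm1, for the 2 genes of each of 8 roles with the smallest p in the Ctsl+/+ response, and for the 5 genes with the smallest p in each genotype comparison and in the interaction (22 genes); all 50 are counted, and others named with values within their role were picked after their values were seen. The genes, roles and lists were chosen with earlier results of these data known. Each library is 1 mouse. Same-numbered mice of the 2 genotypes did not deviate together (r from -0.147 to 0.298), so numbers were not used as pairs. Estimated counts carry assignment error beyond counting error.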

Additional observations from a re-analysis of the deposited data

Results flagged for a closer look

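Of 50 groups of unstimulated mice examined for a mouse far from the rest, 4 had one, where chance gives 2.5 (1 of every 20). Dkc1 was at 6.01 log2 CPM in CtslΔTEC mouse 1 and at 6.24 to 6.30 in the other 4 CtslΔTEC mice. Ddx21 was at 8.002 log2 CPM in the same mouse and at 8.197 to 8.27 in the others. Rrp1b was at 5.44 log2 CPM in Ctsl+/+ mouse 1 and at 5.68 to 5.69 in the other 3 Ctsl+/+ mice. Grwd1 was at 4.60 log2 CPM in CtslΔTEC mouse 2 and at 4.74 to 4.79 in the others. The response of Pus7 to stimulation differed between the genotypes by the interaction test, by 0.56 on the log2 scale.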

How the results depend on the processing

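The counts of the 50 genes called in the stimulation responses stayed at 49 or 50 under every alternative run. Among 46 single-gene calls 39 were kept under all of theirs and 0 changed direction. The calls in the stimulation responses were all kept, whereas of the genotype and interaction calls only that of Polr1a was. Polr1a stayed lower in unstimulated CtslΔTEC cells under all alternatives. In the same comparison Rrp1b was lost in 16 of 23, Nhp2 in 2 of 23, and Bysl and Pus7 in 1 of 23 each. In stimulated cells Wdr43 was lost in 10 of 17 and Gnl3 in 12 of 17, and the interaction of Pus7 was lost in 4 of 26. For genotype in unstimulated cells, 9 genes, all lower, were called with the file date as a factor and 5 with the second date alone, beside 6 as reported, while 2 genes (both lower) were called with the Y-linked covariate and 2 with the retained-intron covariate, and the median was -0.039 with library totals, -0.14 with the Y-linked and -0.049 with the retained-intron covariate. For genotype in stimulated cells, 1 gene was called with library totals and 1 with the Y-linked covariate, and 0 without a count filter, with protein-coding transcripts, with the retained-intron covariate, in the 4 stimulated libraries alone and at an adjusted p under 0.05, while the median was 0.10 with 10 or more counts in every library. For the Ctsl+/+ response the median was 1.77 with library totals, 1.78 with upper-quartile factors, 1.82 without a filter, 1.91 with the retained-intron covariate and 1.91 with libraries thinned to the smallest. For the CtslΔTEC response it was 2.12 with DESeq2, 1.92 with library totals, which moved the median of all genes by -0.14, 2.01 with upper-quartile factors, 2.01 without a filter, 2.14 with 10 or more counts in every library, 2.11 with a transcript length offset, 2.13 with the retained-intron covariate, 2.14 after thinning and 2.14 without the libraries of the first file date. In the interaction 4 genes were called by DESeq2, 2 with upper-quartile factors, 3 with 10 or more counts in every library, 2 with the Y-linked covariate and 2 after thinning, and the median was 0.085 with library totals, 0.20 with 10 or more counts in every library and 0.20 without the first date. The cause of these shifts was not tested.

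Leaving out 1 library at a time gave 4 to 8 genes called in unstimulated, 0 to 1 in stimulated cells and 0 to 2 in the interaction, with medians of -0.11 to -0.08, -0.01 to 0.09 and 0.08 to 0.22, and medians of 1.80 to 1.89 in the Ctsl+/+ and 1.997 to 2.11 in the CtslΔTEC response. With the mouse number as a replicate block 5 genes were called in unstimulated cells, 0 in stimulated cells and 0 in the interaction (Pus7 0.42, adjusted p = 0.494), and 50 and 49 in the responses. Whether same-numbered mice shared a litter or day is not given in the sources used here.

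Stimulated groups held 2 mice each, and the smallest library held 8085463 counts.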
